A study of Gossypium hirsutum with 51 samples.

Results

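The change in transcript levels of wild-type upland cotton (Gossypium hirsutum) ovules between 3 and 5 days post anthesis (DPA), with the day the flower opens as 0, was measured on 4 of the 51 cDNA arrays of the series. These are the arrays titled +5 over +3 wild type of sets 1 and 2, where a set is a forward array and its dye swap, hybridised with 1 RNA pair and the dyes Cy5 and Cy3 exchanged. Set 3 was left out because its forward array carries the control values of another array, that of +10 over +3 in set 2. That set was left out as well, so the +10 values below rest on sets 1 and 3. All 19 control values measured on both were equal to 6 decimals, whereas no other pair of arrays among 1275 shared more than 1. The deposited table holds 11682 clone rows, and the 9622 clones measured on all 4 arrays were tested.

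All RNA was total RNA of whole ovules, with no treatment named in the labels. Besides the ages +5 and +3, wild-type ovules of -3, 0, +10, +15 and +20 DPA were each hybridised against wild type of +3. Wild type of +10 was hybridised against ovules of the same age from a mutant called fl, which the labels do not describe further, and 3 self-to-self arrays had wild-type +3 RNA under both dyes. The design text calls the samples of different sets biologically independent, so the set was the replicate.

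A cotton fibre is a single, greatly elongated cell of the ovule's outer epidermis. Fibre cells bulge from the surface around the day of flowering, then lengthen rapidly by turgor-driven expansion of a thin primary wall, and later deposit a thick cellulose-rich secondary wall. The step from +3 to +5 DPA falls in the early part of elongation, while the embryo and seed coat of the same ovule also develop. Because whole ovules were used, fewer cells of a type and less RNA per cell cannot be told apart in any value below. The clones carry names such as CM006E07, in which the digits after CM are a plate number, and neither the table nor the RefSeq gene list pairs these names with genes. Clones are therefore described by name only, without a function, and fibre or seed markers could not be looked up among them.

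The 4 arrays measured 10692 (set 1 forward), 10223 (set 1 dye swap), 10507 (set 2 forward) and 11573 clones (set 2 dye swap), against 7639 to 11681 on the arrays of the whole series. The remaining entries are exact zeros, taken as not measured. No spot brightness was used, so dim spots could not be removed, and precision is limited by the number of arrays. The direction of the ratios is likely rather than stated. A control spot called HEX was negative on all 23 forward arrays with a value and positive on all 23 dye swaps, not counting the self-to-self arrays, while control rows Y5 to Y8 kept their sign on all 4 arrays, as ratios already turned into the order of the title would. By themselves these signs show a common order of forward and swapped arrays, not which age is on top. If all ratios ran the other way, raised and lowered would exchange below.

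The set 2 dye swap stood apart from the other arrays. Across clones its Pearson r with the others was 0.60, 0.66 and 0.64, against 0.78 to 0.86 among those 3 arrays. It also had the widest spread of log2 ratios, with an SD of 0.77 against 0.57 to 0.66, and the fewest exact zeros, 109 against 990 to 1459. Counts of the 2-fold groups, and the clones in which it lay far from the other 3 arrays, are given below with and without it. The means of set 1 and set 2 correlated across clones (Pearson r 0.84, Spearman rho 0.84), and clones are not independent replicates.

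Transcript levels of many tested clones differed between +5 and +3, in a number that depends on how the spread is estimated. Of the 9622 clones, 2578 were raised at +5 (26.8% of those tested) and 2808 lowered (29.2%), in all 5386 (56%), at a limma adjusted p under 0.05. Most of these differences were small. The median size among changed clones was 0.58 on the log2 scale, and 482 clones were raised (5.01%) and 266 lowered (2.76%) at least 2-fold, in all 748 (7.77%). At least 4-fold changes were seen in 36 raised and 16 lowered clones, and at least 8-fold changes in 4 and 2. The p-values rest on 1 spread per clone estimated over all 8 comparisons, because 2 sets alone leave little to estimate it from. With the spread taken from the 2 sets of +5 alone, 4657 of the 9622 clones changed, 745 of them at least 2-fold.

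The middle of the distribution lay near 0, with a median log2 ratio of -0.03, and the 5th and 95th percentiles were -0.84 and 1.00. The SD between the 2 sets had a median of 0.13. For 7755 clones (80.6%) the 95% interval of the log2 ratio lay between -1 and 1, so that a 2-fold change lay outside it. In the self-to-self arrays, each centred on its median, the mean of 3 arrays passed 2-fold for 14 of 11654 clones (0.12%). Of the 9611 of these clones that were tested at +5, only 1 was among the 14. That none of the 481 raised and 266 lowered clones measured there was among them therefore says little.

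All 4 arrays gave the same sign for 5682 of the 9622 tested clones (59.1%) and for 4829 of the 5386 changed ones (89.7%), a share that the test on these same arrays favours. The set means differed in sign for 26 changed clones, 2 of them in the 2-fold groups. Clone CM006F02 read 0.50, 0.57 and 0.08 on the first 3 arrays and -6.86 on the set 2 dye swap, and CM007H12 read 0.15, -0.17 and 0.26, then 3.81 on the set 2 dye swap. In both cases the 2-fold group rests on that single array. Without the set 2 dye swap, 475 of the 482 raised clones and 265 of the 266 lowered clones still passed the test in the same direction, and 369 and 216 of them remained 2-fold.

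**Figure D1:**
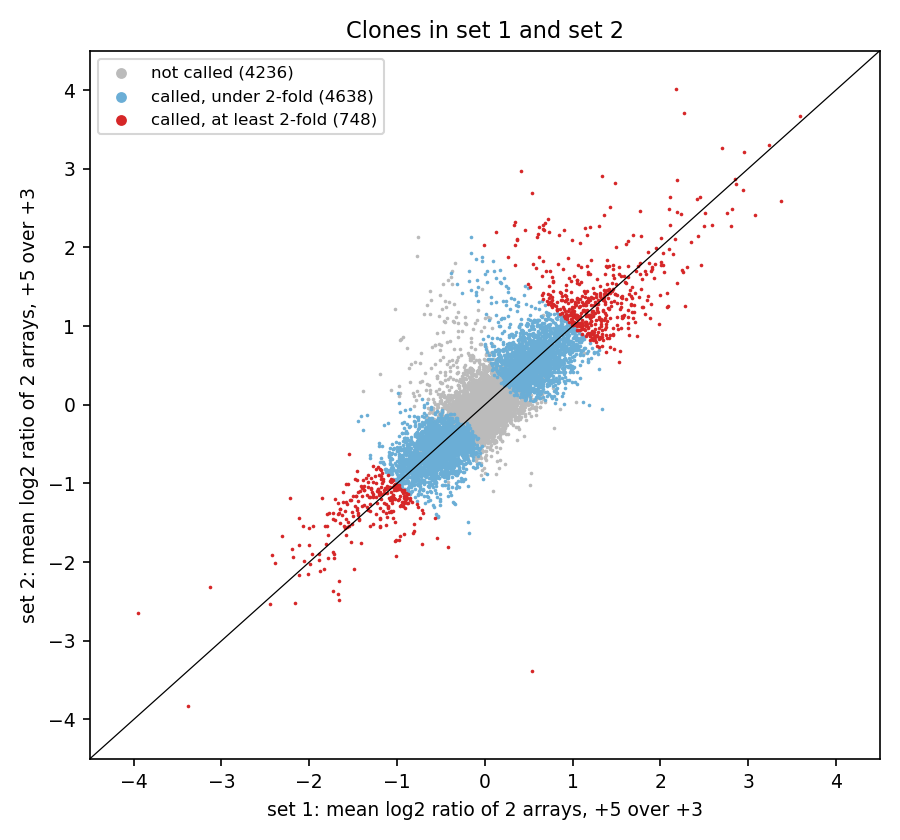
Mean log2 ratio of +5 over +3 in set 1 (x axis) and set 2 (y axis) for the 9622 tested clones; each point is a clone and the line marks equal values. Most of the 748 clones changed at least 2-fold (red) lie along the line, with a scatter above it where set 2 is higher, and CM006F02 stands alone at the lower right.

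The clone raised most was CM006E07. Its log2 ratio was 4.20 and 3.00 on the forward and swapped arrays of set 1 and 3.52 and 3.83 on those of set 2. All 4 values lay above those of the self-to-self arrays, which are unnormalized and were 0.22, 1.09 and -0.13. The mean was 3.64 ± 0.055 (SD, n = 2 sets), a 12.4-fold rise with a standard error of 0.49 in the model (limma adjusted p = 1.54e-05). CM019E04 came next, with 3.94 and 2.54 in set 1 and 3.08 and 3.52 in set 2. Its mean of 3.27 ± 0.042 (SD, n = 2) is a 9.66-fold rise (limma adjusted p = 5.47e-10). In both clones the forward array of set 1 read highest and its swap lowest, while in set 2 the swap read above the forward array. The arrays within a set thus differed more than the set means did.

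Another pair of strongly raised clones depended on the array that stood apart. CM013A08 read 1.96, 2.41 and 2.81 on set 1 forward, set 1 swap and set 2 forward, and 5.22 on the set 2 swap, for a mean of 3.10 ± 1.30 (SD, n = 2). CM109H10 read 2.00, 2.53 and 2.59 on the same 3 arrays and 4.83 on the set 2 swap, for a mean of 2.99 ± 1.02 (SD, n = 2). All 4 values of each clone were positive, but the last was far above the others. Without the set 2 swap the means were 2.50 and 2.43, and from set 1 alone 2.18 and 2.27. Both clones passed the test in each case (limma adjusted p from 3.96e-08 to 0.00202). At the other end of consistency, CM097A04 read 2.92, 2.78, 2.96 and 2.77, with a mean of 2.86 ± 0.0082 (SD, n = 2), a 7.26-fold rise (limma adjusted p = 1.50e-09).

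The 10 most raised clones, which also include CM005E10, CM008H09, CM103G04, CM033D01 and CM019C09, rose 7.12- to 12.4-fold. They were taken from clones with the same sign on all 4 arrays, and their 40 array values ran from 1.96 to 5.22. On the unnormalized self-to-self arrays no single value of these clones exceeded 1.09. The dye swap of set 3, an array that did not enter the model, read between 1.84 and 3.19 for all 10.

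Among lowered clones CM123H11 fell most. It read -3.31 and -3.44 in set 1 and -3.63 and -4.03 in set 2, so all 4 arrays lay close together. The mean was -3.60 ± 0.32 (SD, n = 2), a 12.2-fold lower level at +5 (limma adjusted p = 3.68e-10), and the set 3 swap read less, -1.92. CM036F02 read -3.97 and -3.94 in set 1 but -2.97 and -2.33 in set 2, for a mean of -3.30 ± 0.92 (SD, n = 2; limma adjusted p = 1.63e-09). Here the sets did not overlap, and set 1 was lower throughout. CM099E09 read -3.38, -2.88, -2.76 and -1.88, a 6.60-fold lower level, with the set 2 swap nearest to 0.

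The remaining 7 of the 10 most lowered clones, CM080C11, CM122D09, CM078G11, CM097D02, CM123H05, CM078C11 and CM108A11, were 4.20- to 5.61-fold lower. Clone CM108A11 read -2.21, -1.11, -1.34 and -3.62, and on the set 3 swap only -0.42, so the size of its fall varied from array to array. Without the set 2 swap its mean was -1.50, and that of CM122D09, which read -3.54 on the set 2 swap, was -1.83 in place of -2.34. The set 3 swap was negative for all 10. Of these 10 clones, 9 come from plates 77 to 124, against 3 of the 10 most raised. Those plates hold 3431 of the 9622 tested clones, 178 of the 266 clones lowered 2-fold and 55 of the 482 raised 2-fold.

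**Figure D2:**
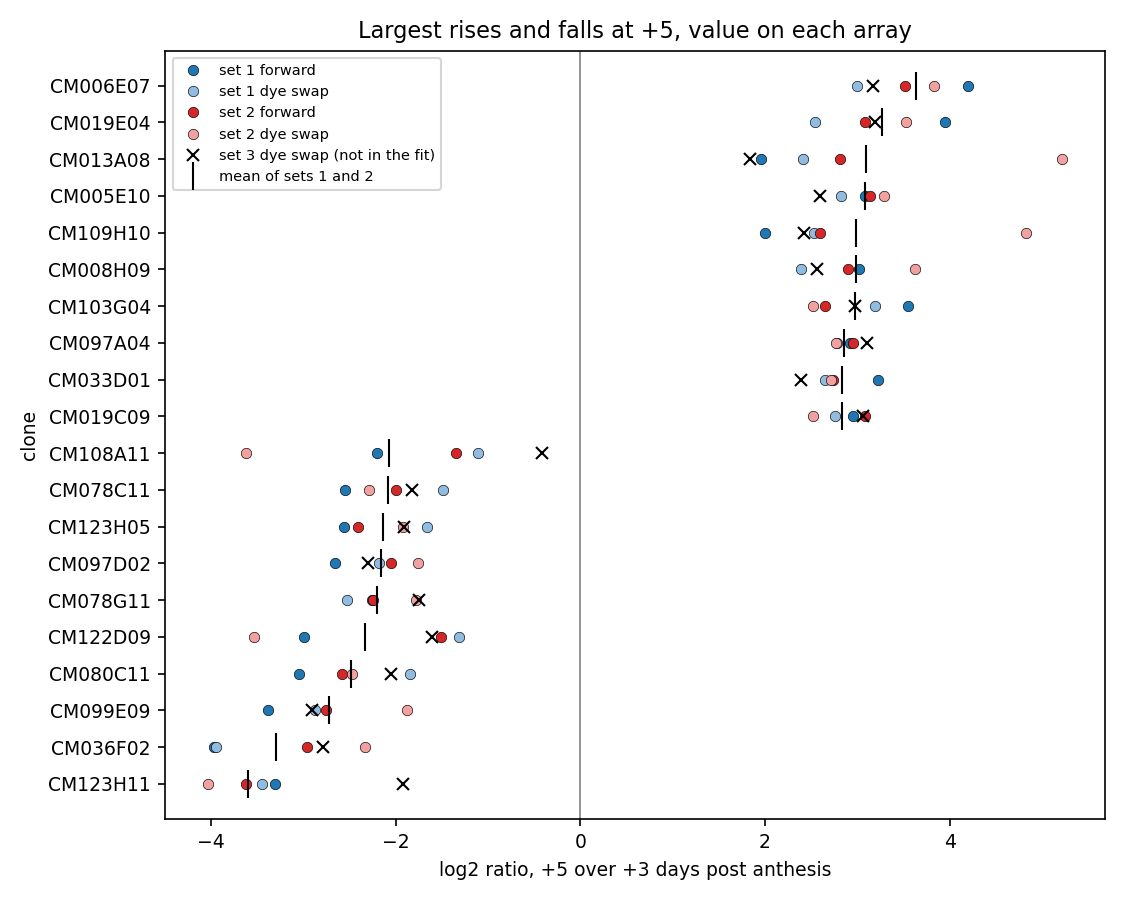
Log2 ratio of +5 over +3 (x axis) of the 10 most raised and 10 most lowered clones (y axis) on each array; circles are the 4 arrays in the model, crosses the set 3 dye swap that is not in it, and bars the mean of sets 1 and 2. Every circle and cross lies on the same side of 0 for its clone, and the set 2 swap stands far out for CM013A08, CM109H10 and CM108A11.

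The clones with the smallest adjusted p were partly others, an order that rests on the spread shared with the other comparisons. CM049A10 read 2.37, 2.01, 2.01 and 2.88 (mean 2.32, a 4.99-fold rise) and CM015E01 read 1.96, 1.92, 2.08 and 1.49 (mean 1.86, 3.63-fold), both with a limma adjusted p of 5.88e-11. CM017A01 and CM027G12 had the same adjusted p in limma, with means of 2.75 and 2.65, and CM111C11 followed with 2.21. In CM017A01 set 1 forward read 3.77 and the other arrays 2.38 to 2.45, so its mean leans on that array. On the lowered side CM089H10 read -2.07, -1.91, -1.90 and -2.15, a mean of -2.01 ± 0.027 (SD, n = 2; limma adjusted p = 5.88e-11). CM001E11, CM102H04 and CM093H10 had means of -1.89, -1.72 and -1.995. The order changed in a limma fit of the +5 sets alone. There the adjusted p was 0.000315 for CM049A10 and 0.000389 for CM015E01, but 0.000167 for CM006E07 and 0.00169 for CM013A08.

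The dye swap of set 3 gave a reading of the 2-fold groups on an array that the model had not used, without a swap partner to cancel dye effects. Of the 475 raised clones measured on it, 471 lay above 0, with a median of 1.15, and 300 (63.2%) reached a log2 ratio of 1. Of the 256 lowered clones, 255 lay below 0, with a median of -1.11, and 158 (61.7%) reached -1. Over all 9187 tested clones measured on this array, 47.1% lay above 0, the median was -0.04, and 4.91% and 3.06% passed 2-fold upwards and downwards.

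The +5 over +3 ratio differed by plate. Ordered by plate number, the medians of the 124 plates tended to be lower from plate 77 on than up to plate 76. This boundary was the one with the largest drop in the mean plate median from the plates before it to those after it. Plate medians ran from -0.11 to 0.33 on plates 1 to 76 and from -0.40 to -0.05 on plates 77 to 124, where all 48 lay below 0. The step was taken as the median of all clones on plates 77 to 124 minus that on plates 1 to 76. It was -0.55 on both forward arrays, -0.14 and -0.19 on the swaps of sets 1 and 2, and -0.17 on the set 3 swap. The step was thus larger in 1 dye orientation. In the means of forward and swapped array, which were tested, it was -0.35 in set 1 and -0.39 in set 2. On the day of flowering the means of sets 1 to 3 gave 0.09, 0.05 and 0.06. At the oldest age hybridised against +3 they gave -0.37, -0.51 and -0.58. In the reported comparison of wild type with fl they gave -0.32, -0.36 and -0.35. Where wild-type +3 RNA was in both channels, on the self-to-self arrays, the step was -0.20, 0.19 and -0.43. The clone values of those arrays are unnormalized, and the second had the dyes in reverse order in the design text. They have no swap partner, so they do not show how much of the step remains in a set mean.

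Raised and lowered clones were unevenly divided by that boundary. Because it was chosen from these same plate medians, an uneven division follows in part from the choice. On plates 1 to 76, 2210 of 6191 tested clones were raised (35.7%) and 1248 lowered (20.2%). On plates 77 to 124, 368 of 3431 were raised (10.7%) and 1560 lowered (45.5%). In the 2-fold groups, 427 raised and 88 lowered clones came from the low plates and 55 and 178 from the high ones. Centring each plate of each array on its median evens the plates by construction. After it, the share raised was 31.1% on the low plates and 26.2% on the high ones, and the shares lowered were 28.1% and 27.7%. All 482 clones raised 2-fold and 265 of the 266 lowered 2-fold still passed the test in the same direction after that centring, but 371 and 159 of them remained 2-fold. Of all changed clones, 2237 of the 2578 raised and 2171 of the 2808 lowered still passed in the same direction, and none passed in the opposite one. The cause of the step was not tested.

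**Figure D3:**
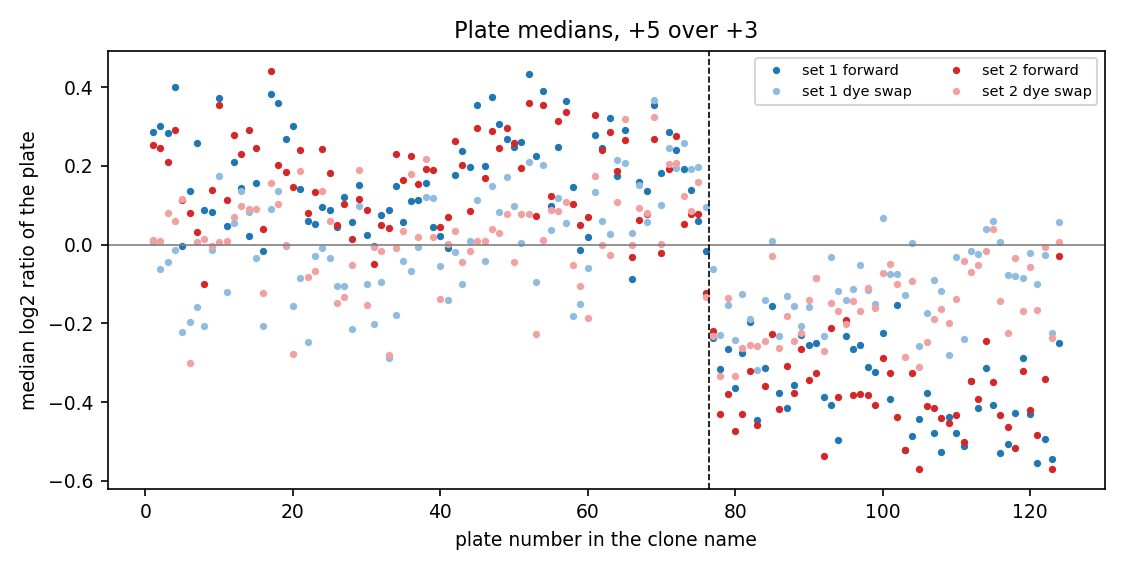
Median log2 ratio of +5 over +3 of each plate (y axis) against the plate number in the clone name (x axis), a point per plate and array; the dashed line marks the boundary between plates 76 and 77. Medians drop at the boundary on all 4 arrays, by 0.55 on the forward arrays and by 0.14 and 0.19 on the swaps.

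Where the 2-fold clones stood at the other ages was read from the other comparisons, all of which share wild-type +3 RNA with the +5 arrays. Because of that shared reference, the values are given side by side and no likeness between ages is drawn from them. The clone values of all 6 arrays of -3 and +3 are unnormalized, with array medians from -0.52 to 0.47, so the -3 values are on another scale than those of the other ages. The 482 raised clones had a median log2 ratio to +3 of -0.54 at -3 and -0.45 at 0. At -3, 281 of 453 tested were lower than at +3 (62%, against 25% of all clones tested at -3) and 39 higher (8.61%, against 20%). At 0, 259 of 482 were lower (53.7%, against 14.2%) and 32 higher (6.64%, against 14.4%). Their medians were 1.14 at +10, 0.73 at +15 and 0.95 at +20. At +10, 460 of 478 were higher than at +3 (96.2%, against 28.8%). At +15, 341 of 473 were higher (72.1%, against 31.5%) and 34 lower (7.19%, against 36.5%). At +20, 410 of 472 were higher (86.9%, against 33.5%).

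The 266 lowered clones had a median of 0.29 on the day of flowering and of 0.07 at -3. On the day of flowering, 121 of 266 were higher than at +3 (45.5%, against 14.4% of all clones tested) and 5 lower (1.88%, against 14.2%). Their medians were -1.09 at +10, -1.19 at +15 and -1.24 at +20. At +10, 233 of 254 were lower than at +3 (91.7%, against 30.3%), at +15 235 of 264 (89%, against 36.5%) and at +20 240 of 262 (91.6%, against 35.8%).

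**Figure D4:**
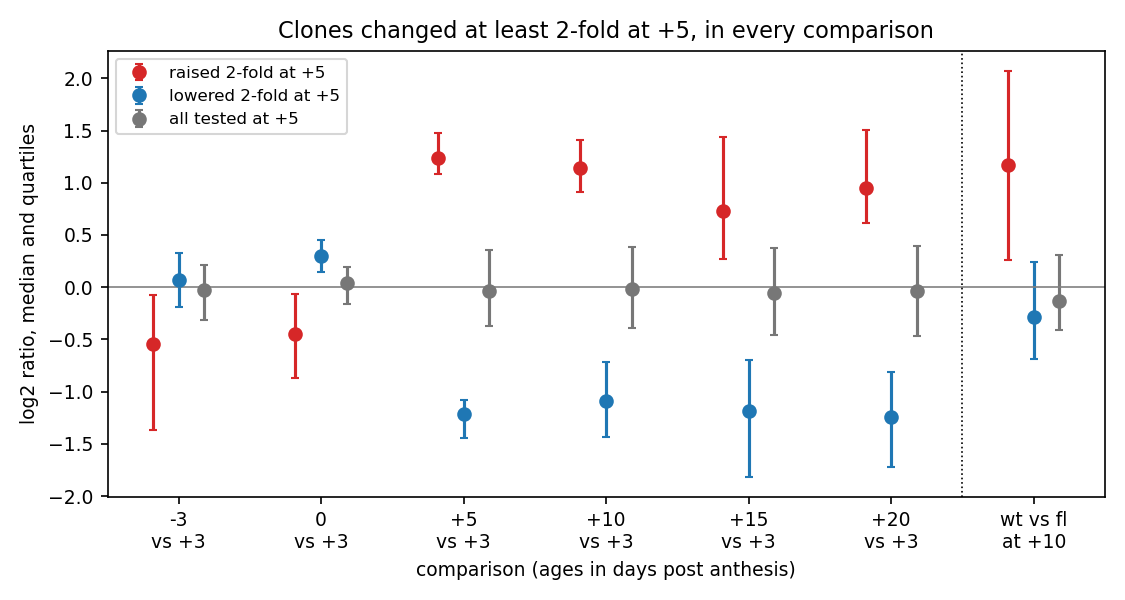
Median log2 ratio with quartiles (y axis) of the 482 clones raised 2-fold at +5 (red), the 266 lowered (blue) and all 9622 tested clones (grey) in each comparison (x axis); the +5 column is the one that chose them. The raised clones have medians of -0.54 and -0.45 at -3 and 0 and of 0.73 to 1.14 from +10 on, and lie at 1.17 in wild type over fl.

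The +3 level cancels when +5 is set against another age through it, but the +5 arrays that chose the 2-fold groups enter each such contrast, so the counts of members below are descriptions and support nothing. Between +10 and +5, 575 of 9428 clones differed at a limma adjusted p under 0.05 (6.1%), 386 higher and 189 lower at +10, and an unadjusted p under 0.05 was found for 1964. Of 478 raised clones tested, 15 were higher still at +10 (3.14%) and 17 lower (3.56%), against 4.09% and 2% of all. Of 254 lowered clones, 35 were higher (13.8%) and 13 lower (5.12%), against the same 4.09% and 2%. The count of 575 fell to 175 without set 2 of the +5 arrays and was 646 without set 1.

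Between +5 and 0, 5585 of 9610 clones differed (58.1%), 2534 higher and 3051 lower at +5. Among the raised clones 467 of 482 were higher at +5 than at 0 (96.9%, against 26.4% of all), and among the lowered 265 of 266 were lower (99.6%, against 31.7%). Between +5 and -3, 5460 of 9488 clones differed (57.5%). Here 428 of 453 raised clones were higher (94.5%, against 28.9% of all) and 253 of 265 lowered clones lower at +5 (95.5%, against 28.6%). The -3 values are unnormalized, so this contrast sets values on different scales against each other. Between +15 and +5, 3367 of 9481 differed (35.5%). Of 473 raised clones, 232 were lower at +15 than at +5 (49%, against 18.9% of all) and 49 higher (10.4%, against 16.6%). Of 264 lowered clones, 50 were lower (18.9%) and 72 higher (27.3%).

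Some clones that had begun to rise at +5 were far higher at +10. CM010H07 read 1.09, 1.69, 0.86 and 1.20 on the 4 arrays of +5 and reached a mean of 3.96 ± 0.44 (SD, n = 2) at +10, 5.59 at +15 and 4.96 at +20. CM027E10 read 1.86, 1.22, 1.32 and 1.11 at +5 and 3.53 ± 0.076 (SD, n = 2) at +10, and CM001A08 read 1.22, 1.53, 1.26 and 1.02 and then 3.36 ± 0.65 (SD, n = 2). In all 3, every +5 array lay above 0 and the +10 mean was higher by more than 2. The differences between +10 and +5 were 2.76 ± 0.47, 2.15 ± 0.32 and 2.10 ± 0.22 (SE), with limma adjusted p of 0.00164, 0.000284 and 1.03e-05. The test of CM010H07 at +5 itself was lost without set 1 (limma adjusted p = 0.0932).

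Other clones peaked at +5 or continued down. CM079E01 read 1.18, 2.16, 1.19 and 1.38 at +5, then -0.31 at +10, -1.41 at +15 and -1.96 at +20. CM114F07 read 1.19, 1.92, 1.51 and 1.77 at +5, then -0.18, -1.08 and -1.35. Both were thus above +3 at +5 alone among the later ages, and near it at -3 (-0.39 and 0.04) and 0 (0.30 and 0.33). Their falls from +5 to +10 were -1.79 ± 0.16 and -1.78 ± 0.25 (SE; limma adjusted p = 4.47e-06 and 0.000353). CM001C04 and CM103C12 were lowered at +5, to -1.59 and -1.45, and lower again at +10, at -3.51 and -3.43. CM036F02 went the opposite way, from -3.30 at +5 to -0.89 at +10 (difference 2.41 ± 0.32, SE; limma adjusted p = 9.75e-05).

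The largest rises from the day of flowering to +5 belonged to CM005H11, CM025A04, CM005E10 and CM032F06. CM005H11 read 1.10, 0.55, 0.98 and 1.03 at +5, after means of -3.64 ± 0.14 at -3 and -4.39 ± 0.24 at 0 (SD, n = 3). CM025A04 read 1.61, 0.86, 1.28 and 0.98 at +5, after -3.38 ± 0.13 and -4.10 ± 0.21 (SD, n = 3). CM032F06 read 0.75, 0.71 and 1.19, and 3.21 on the set 2 swap (mean 1.46, or 0.96 without that array), after -3.18 ± 0.057 and -3.43 ± 0.32 (SD, n = 3). Most of the climb in these 3 clones therefore lay between 0 and +3, and a smaller part between +3 and +5. Their means were 1.02, 1.12 and 0.87 at +10, -0.37, -0.28 and -0.39 at +15, and 0.96, 0.94 and 0.85 at +20. CM005E10 had a different balance, with -2.04 ± 0.26 (SD, n = 3) at 0 and 3.09 ± 0.18 (SD, n = 2) at +5. The differences between +5 and 0 were 5.30, 5.28, 5.12 and 4.89 for CM005H11, CM025A04, CM005E10 and CM032F06, with limma adjusted p from 2.65e-12 to 1.12e-06.

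Falls from the day of flowering were largest in CM123H11 and CM036F02, followed by CM024F10 and CM119G01. CM024F10 read -2.14, -2.08, -1.59 and -1.98 at +5, after 1.06 at -3 and 1.55 at 0. CM119G01 read -2.37, -1.77, -1.79 and -1.29, after 1.11 and 1.52. These last clones fell at each step from 0 through +3 to +5, whereas CM123H11 and CM036F02 stood only 0.45 and 0.37 above +3 on the day of flowering.

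**Figure D5:**
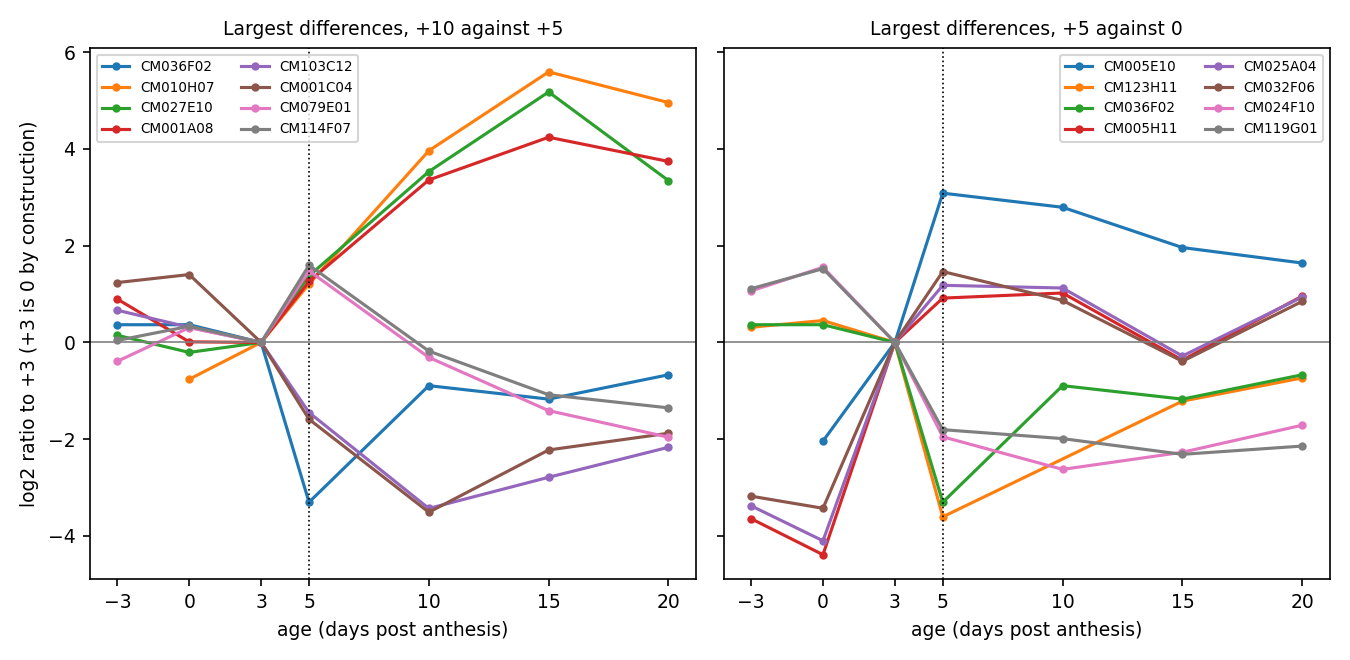
Mean log2 ratio to wild-type +3 (y axis) against age in days post anthesis (x axis) for the clones with the largest differences between +10 and +5 (left) and between +5 and 0 (right); +3 is 0 by construction, the dotted line marks +5, and a line passes over an age at which the clone was not tested. CM010H07, CM027E10 and CM001A08 climb on to 3.36 to 3.96 at +10, while CM079E01 and CM114F07 peak at +5.

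The arrays of wild type over fl at +10 name no RNA of the +5 arrays and so gave a separate reading of the 2-fold groups. Here too the direction was taken from the titles. If this comparison alone ran the other way, higher and lower in wild type would exchange in all values below. Read in title order, clones raised at +5 were mostly higher in wild type than in fl. Of 470 tested, 346 were higher (73.6%, against 26.4% of all clones tested in that comparison) and 46 lower (9.79%, against 39.8%), at a limma adjusted p under 0.05, and 257 were at least 2-fold higher (54.7%, against 9.52%). Their median log2 ratio was 1.17, against -0.13 for all clones tested at +5, and in the 3 sets it was 1.08, 1.02 and 1.30. With plates centred, 74.3% were higher, against 32.7% of the clones tested at +5. Within plates 1 to 76 the shares were 75.8% against 35.7%, and within plates 77 to 124 they were 56.6% against 10.8%.

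The lowered clones showed no uniform direction between wild type and fl. Of 203 tested, 47 were higher in wild type (23.2%, against the 26.4% of all) and 106 lower (52.2%, against the 39.8%), with a median of -0.29. On plates 1 to 76, 51.5% were lower, against 29.4% of the clones tested at +5, but on plates 77 to 124, which hold 137 of the 203, 52.6% were lower, against 57.9%. With plates centred, 32.5% were higher, against 32.7%, and 38.4% lower, against 30.6%, and the median was -0.08. No more than 203 of the 266 could be tested, because the others lacked a value on 1 or more arrays of at least 2 sets.

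Single clones ranged widely in this comparison. Wild type exceeded fl by 4.56 ± 0.58 in CM005H11, 4.29 ± 0.57 in CM025A04 and 3.87 ± 0.21 in CM032F06 (log2, SD, n = 3), with limma adjusted p from 1.28e-15 to 1.81e-12. Of the 10 most raised clones 7 were higher in wild type, led by CM019C09 at 3.81 ± 0.35 (SD, n = 3), and none passed the test as lower. CM013A08, CM109H10 and CM033D01 did not pass, at 0.73, -0.18 and 0.01. Of the 10 most lowered clones 6 were tested, and 4 of them were also higher in wild type and none lower. The 4 were CM123H05 (2.00 ± 1.21, SD, n = 2, with sets at 1.14 and 2.86), CM099E09 (0.88), CM097D02 (0.74) and CM080C11 (0.65). CM017A01 went the other way with a ratio of wild type to fl of -1.23 ± 0.15 (log2, SD, n = 3; limma adjusted p = 9.26e-09), and so did CM010H07 at -1.70 ± 0.20 (SD, n = 3; limma adjusted p = 2.81e-05).

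Spots listed under gene-like names are on the unnormalized scale and were not tested. TUB1 read 1.18, 1.72, 1.72 and 0.40 on the 4 arrays, a mean of 1.25 ± 0.27 (SD, n = 2 sets), and ACT1 read 0.81, 1.14, 1.20 and -0.12, a mean of 0.76 ± 0.31 (SD, n = 2). Both names occur as synonyms in the RefSeq list for upland cotton, ACT1 for a gene also listed as actin, a structural protein of the cytoskeleton, but the match is by name only. TUB2, ACT2 and SDH had means of 0.56, 0.68 and 0.93, and ATP1, ATP2, CYC1, UQCR, USP1 and USP2 of -0.62 to -0.03. For ACT1 the set 2 swap was the only array below 0.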

How the data were processed

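The authors deposited a table of log2 ratios with 11706 rows for 51 arrays; the unit was found from the values, and the normalization method is not given in the sources used here. Arrays were assigned to comparison, set and dye orientation from the titles. Exact zeros were taken as missing. The forward and swapped array of a set, already in title order, were averaged, and a clone was tested where at least 2 sets had both arrays. In R 4.3.3, limma 3.58.1 (lmFit, eBayes) fitted 1 group-means model over 8 comparisons, with Benjamini-Hochberg adjustment within each contrast. A clone was called changed at an adjusted p under 0.05, and 2-fold means a log2 ratio of at least 1 in size. The comparison of -3 was turned so that each age is over +3. Wild type against fl at +3 entered the model for its spread only and is not reported, because its sign is not settled.

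Named clones are the 10 with the largest rise and fall among called clones with the same sign on all 4 arrays, the 5 with the smallest adjusted p in each direction among 2-fold clones, and the 4 with the largest difference in each direction of +10 against +5 and of +5 against 0 among clones called at +5. CM006F02 and CM007H12 were chosen after their values were seen. Members and lists were chosen with earlier results of these data known. Alternatives covered the samples in the model, centring, scaling, plate centring, the shared array, exact zeros, the filter on measured arrays, robust moderation, each set left out and a set block. Leaving out the set 2 dye swap was added after the data were seen.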

Additional observations from a re-analysis of the deposited data

Results flagged for a closer look

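The dye swap of set 2 had a mean Pearson r with the other 3 arrays of 0.632, below 0.746 to 0.759 for those arrays, and its gap to the nearest of them was large for a group of 4. Among the 41 named clones, 2 had a single array set apart by a gap that was large relative to the range of its 4 values. These were CM033D01 on the set 1 forward array, at 3.23, and CM017A01 on the same array, at 3.77. The rule weighs the gap against the range and not by its size. CM013A08, CM109H10, CM108A11 and CM032F06, whose set 2 swap is described above, did not pass it. About 5% of groups of 4 are picked out in this way when nothing sets an array apart.

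The log2 difference between +10 and +5 passed the limma test for 12 of the named clones. It was positive for CM010H07 (2.76), CM036F02 (2.41), CM027E10 (2.15), CM001A08 (2.10), CM013A08 (1.95), CM080C11 (1.14) and CM093H10 (1.13). It was negative for CM103C12 (-1.98), CM001C04 (-1.92), CM079E01 (-1.79), CM114F07 (-1.78) and CM078G11 (-1.28). Of these, 8 were named for this difference.

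On the set 3 dye swap, which the main model did not use, 7.62% of measured clones lay past 2-fold. The shares were 0.548%, 1.58% and 1.10% on the self-to-self arrays, whose clone values are unnormalized. With arrays centred on their medians, the share was 7.82% on the set 3 swap and 0.445%, 1.24% and 0.497% on the self-to-self arrays.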

How the results depend on the processing

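The counts of changed clones kept within 1.5 times of their values under most alternatives. Restricting the test to the 5265 clones measured in all comparisons gave 3178 for +5 against +3 (384 at least 2-fold), 366 for +10 against +5, 3357 for +5 against 0, 3284 for +5 against -3 and 1984 for +15 against +5, with fewer clones tested. The count for +10 against +5 was the least stable. It was 962 with arrays centred, 1145 with plates centred and 175 to 646 with 1 set of +5 left out, and the cause was not tested. Leaving out a set gave 3640 to 4257 for +5 against +3, 737 to 993 at least 2-fold, 4579 to 5095 against 0, 4526 to 5017 against -3 and 2428 to 2915 for +15 against +5. The lone set is then assumed to vary like the other comparisons.

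Set numbers were not taken to pair the sets, since with 2 sets the deviations of same-numbered sets correlated at -0.07 to 0.14 over 6 comparisons. With set number as a replicate block, 5376 clones changed at +5 against +3, 784 of them at least 2-fold, and 380 changed between +10 and +5. Centring arrays split the +5 changes into 2942 raised and 2826 lowered. Of the 41 named clones, CM010H07 without set 1 (1.03, limma adjusted p = 0.0932) and CM103C12 and CM032F06 without set 2 (-1.44, 0.0514 and 0.73, 0.0521) no longer passed the test, and no named clone turned direction under an alternative that tested it.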
